A study of Mus musculus with 6 samples.

Results

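Nonsense-mediated mRNA decay (NMD) destroys mRNAs whose reading frame ends too early, and it also sets the level of many intact mRNAs. The 8 genes described here, *Upf1*, *Upf2*, *Upf3a*, *Upf3b*, *Smg1*, *Smg5*, *Smg6* and *Smg9*, are UPF and SMG genes, chosen by symbol among the 23183 gene symbols measured. All 8 were found and all 8 passed the filter on low values, which 10326 genes passed in all. The measurements come from sorted double positive (DP) thymocytes, immature thymic T cells with CD4 and CD8 together on their surface. WT mice were *Nsrp1* f/f (NSRP1f/f), with loxP sites in both copies of *Nsrp1* and no Cre, and NSrp70-cKO mice were *Nsrp1* f/f CD4Cre (NSRP1f/fCD4Cre), which carry the same loxP sites and express Cre from the CD4 promoter. *Nsrp1* encodes NSrp70, a splicing regulator of nuclear speckles. All mice were C57BL/6 and 6 weeks old, and 3 libraries were made per genotype. Because the CD4 enhancer and promoter drive Cre, deletion in this model begins late in the double negative stage, before the cells become DP.

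In NMD, UPF1 is the RNA helicase at the centre of the pathway, and UPF2 together with UPF3A or UPF3B links it to the exon junction complex that splicing leaves on an mRNA. SMG1 is the kinase that phosphorylates UPF1, and SMG9 is a subunit of the SMG1 complex. Phosphorylated UPF1 then recruits SMG6, an endonuclease that cuts the mRNA, and SMG5, an adaptor to the enzymes that remove the cap and the poly(A) tail. Several NMD factors are known to be NMD targets themselves, so that the pathway limits its own activity, and it is needed during thymocyte development, where rearranged T cell receptor genes often carry early stop codons.

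The 8 genes lie on 5 autosomes and chromosome X of mm10 (GRCm38). *Upf1* spans chr8:70331525-70353278 on the minus strand, *Upf2* chr2:5951469-6056703 on the plus strand, *Upf3a* chr8:13785615-13799193 on the plus strand and *Upf3b* chrX:37091678-37110322 on the minus strand. *Smg1* spans chr7:118131308-118243670 on the minus strand, *Smg9* chr7:24399619-24422778 on the plus strand, *Smg5* chr3:88336260-88362338 on the plus strand and *Smg6* chr11:74925823-75164448 on the plus strand. *Smg6* ends 1.88 Mb before the start of *Nsrp1* on the same chromosome.

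The 250 bases before the start of 3 members are shown because these members had the lowest values relative to WT among the UPF genes (*Upf1*) and in the SMG1 complex (*Smg9*), or were higher than WT (*Upf3b*). They are from RefSeq on GRCm38.p6, read 5′ to 3′ on the strand of the gene, and all 8 members had an entry. Capitals mark, on either strand, the CCAAT box (letters CCAAT), the GC box (letters GGGCGG), the palindrome CTCGCGAG and the NRF1 core CGCATGCG, which were picked after the sequences were seen.
Upf1, chr8:70353280-70353529: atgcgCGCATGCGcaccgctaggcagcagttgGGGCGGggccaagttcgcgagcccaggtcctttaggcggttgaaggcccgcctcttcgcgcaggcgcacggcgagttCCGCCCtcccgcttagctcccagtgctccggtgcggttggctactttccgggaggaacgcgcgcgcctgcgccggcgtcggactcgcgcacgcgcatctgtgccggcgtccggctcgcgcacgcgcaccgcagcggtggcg
Smg9, chr7:24399378-24399627: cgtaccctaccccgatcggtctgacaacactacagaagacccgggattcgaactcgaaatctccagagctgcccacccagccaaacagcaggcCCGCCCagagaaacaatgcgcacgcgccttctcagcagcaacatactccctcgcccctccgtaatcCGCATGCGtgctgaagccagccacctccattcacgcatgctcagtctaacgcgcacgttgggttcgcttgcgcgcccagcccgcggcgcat
Upf3b, chrX:37110323-37110572: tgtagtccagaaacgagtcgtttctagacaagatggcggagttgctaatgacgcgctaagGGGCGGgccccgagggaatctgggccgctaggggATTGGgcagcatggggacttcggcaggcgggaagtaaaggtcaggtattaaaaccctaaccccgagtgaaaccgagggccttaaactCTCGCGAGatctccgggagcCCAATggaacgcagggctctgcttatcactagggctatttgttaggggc
The motif CGCATGCG, the core of NRF1 sites, occurred in *Upf1* and *Smg9* among the 8 members and in 1.55% of the 32841 promoters of the same length. CTCGCGAG occurred in *Upf3b* and in 0.761% of promoters. GGGCGG, the GC box, occurred in 7 of the 8 members, all but *Smg5*, against 32.7% of promoters, and CCAAT in *Smg1*, *Upf3a* and *Upf3b* against 33.9%. TATAAA was in none of the 8 and in 12.4% of promoters. The *Upf1* promoter held 41 CpG dinucleotides and that of *Upf3b* 16, against a median of 6 over all promoters. A match describes the letters only, and factor binding was not measured.

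The authors deposited FPKM values (fragments relative to transcript length in kilobases and to library size) per gene symbol, summed over isoforms. From the steps of low FPKM values, between 13.1 and 20.9 M fragments (M, mega) were estimated per library. The targeted gene was checked first. *Nsrp1*, listed under its older symbol *Ccdc55*, had an FPKM of 20.2, 20.7 and 21.1 in WT and of 17.7, 15.8 and 15.0 in cKO (log2 fold change -0.34, adjusted p = 0.00675), a remaining level that does not tell whether the counted exons include the deleted part. The DP label held in both groups: the 8 DP markers, *Cd4*, *Cd8a* and *Rag1* among them, summed to 4853 to 4936 FPKM in WT and 6726 to 8846 in cKO. The median squared difference over single-transcript genes, as a chi-square statistic, was 1.22 to 1.29 times what counting alone gives within WT pairs and 5.11 to 11.5 times within cKO pairs, so WT values are given as a mean with the range, and each limma test was repeated after averaging WT into 1 sample. In that fit the lone WT sample is assumed to vary like the 3 cKO libraries, from which all of the spread is estimated. The labels do not say that the libraries came from separate mice, and p-values then measure only the spread between these libraries, which may be technical. *Xist* was at 69.8 to 72.0 FPKM in WT and 4.07 to 5.44 in cKO, while *Ddx3y* of chromosome Y was listed at 0 in WT and at 26.2 to 35.0 in cKO, so genotype and sex cannot be told apart. The 6 markers of cycling cells summed to 758 to 768 FPKM in WT and 1568 to 1808 in cKO, with all 6 higher. The 5 epithelial markers summed to 3.56 to 3.98 FPKM in WT and 1.92 to 3.67 in cKO, with *Foxn1* and *Krt5* listed at 0 throughout, and the 6 macrophage and dendritic cell markers summed to 4.96 to 7.18 FPKM in WT and 3.70 to 5.86 in cKO. The 4 B cell markers summed to 22.6 to 24.0 FPKM in WT and 26.6 to 39.4 in cKO, and the 2 markers of double negative thymocytes to 5.202 to 5.71 and 3.08 to 4.27. Of 5 markers of mature single positive T cells, 4 were lower and 1 higher in cKO, and the 3 erythroid markers summed to 1.96 to 2.72 FPKM in WT and 12.3 to 26.6 in cKO. The part of these differences in the results for the NMD factors was not tested. In bulk samples such as these, fewer cells of a type and less RNA per cell cannot be told apart.

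Of the 8 NMD factors, 4 were lower in cKO (*Upf1*, *Smg5*, *Smg6* and *Smg9*), 1 was higher (*Upf3b*) and 3 did not pass the test (*Upf2*, *Upf3a* and *Smg1*). Genes were called at an adjusted p under 0.05 from limma on log2(FPKM + 1), adjusted by the Benjamini-Hochberg method over all genes tested. Over all 10326 genes, 65.5% were called, 35.8% higher and 29.8% lower, so that 5 called members of 8 are near the background share. The median log2 fold change was -0.20 over the 8 members and 0.04 over all genes tested. The 3 cKO values lay on 1 side of the 3 WT values for 7 of the 8 members, all but *Upf3a*, and for 72.5% of all genes.

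**Figure D1:**
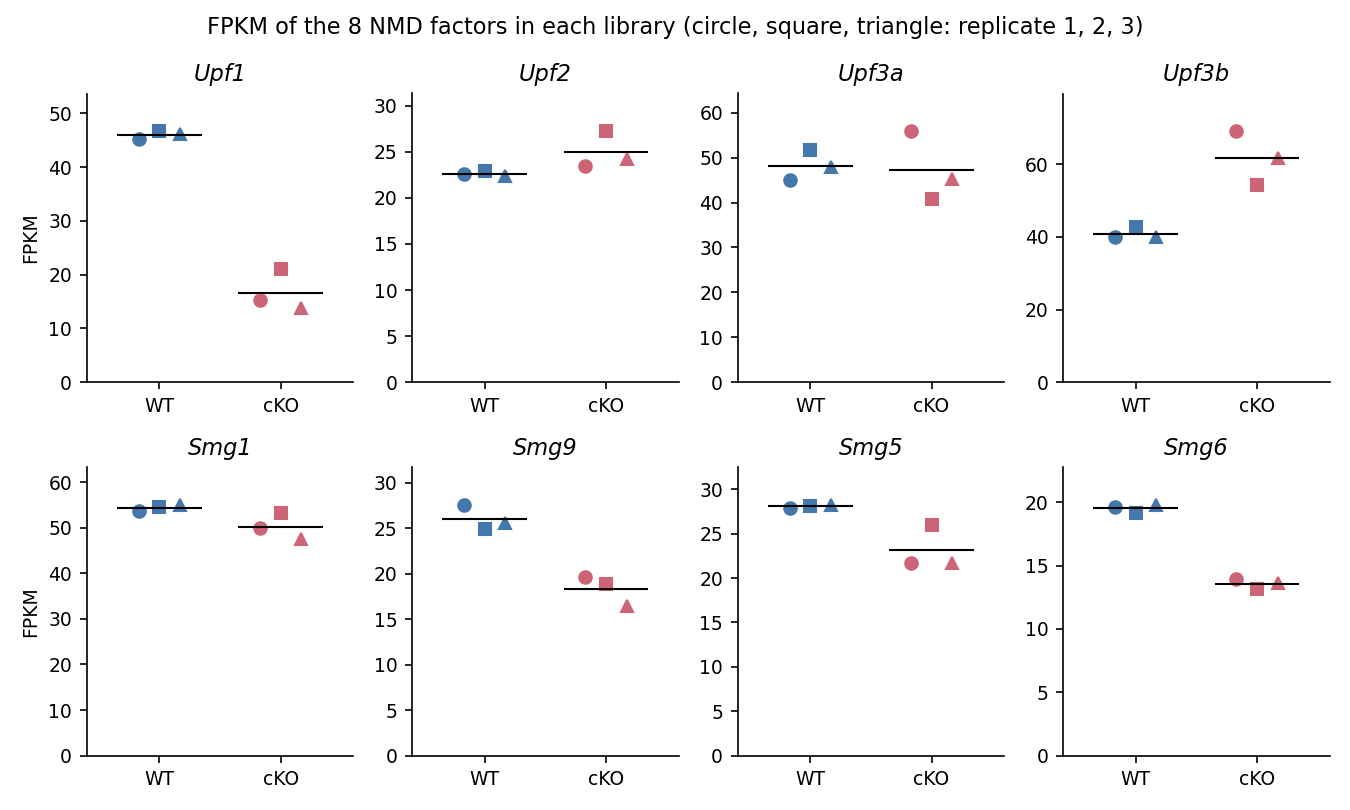
FPKM (vertical axes, each from 0) of the 8 NMD factors in the 3 WT and 3 cKO libraries. Points are single libraries and lines are group means. The 3 cKO values of *Upf1*, between 13.8 and 20.99, lie far below the 3 WT values, between 45.3 and 46.7, while the groups of *Upf3a* overlap.

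*Upf1*, the helicase, was the member with the largest change. Its FPKM was 45.3, 46.7 and 46.1 in WT 1, 2 and 3 and 15.3, 20.99 and 13.8 in cKO 1, 2 and 3. The 3 cKO libraries lay far below the 3 WT libraries, and cKO 2 was the highest of the 3. The cKO mean, 16.7 ± 3.81 (SD, n = 3), was 36.2% of the WT mean of 46.1 (range 45.3 to 46.7). The log2 fold change was -1.43 (limma, adjusted p = 0.000262, standard error 0.14). A call with a log2 fold change of -1 or below was reached by 4.71% of all genes tested. With WT averaged into 1 sample, a test whose spread comes from the cKO libraries alone, its adjusted p was 0.0302 and the other 7 members were not called, where 8.74% of all genes were called lower and 7.16% higher. Within each library, *Upf1* stood at percentile 81.4, 81.8 and 81.6 of the tested genes by FPKM in WT and at 51.9, 60.5 and 49.1 in cKO. It went from among the more abundant transcripts to the middle of the ranking. The genes *Cers1* and *Gdf1*, which overlap *Upf1* on the other strand, reached at most 0.449 FPKM in any library.

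No other UPF gene was lower in the test. *Upf2*, the adaptor that binds UPF1, had an FPKM of 22.6, 22.9 and 22.4 in WT and 23.5, 27.2 and 24.2 in cKO. The 3 cKO values were above the WT values by a narrow margin, and the difference did not pass the test (log2 fold change 0.13, standard error 0.07, adjusted p = 0.132 from limma). The ratio of *Upf1* to *Upf2* within a library, a ratio chosen after the values were seen and given with no test, was 2.01, 2.04 and 2.06 in WT and 0.650, 0.770 and 0.568 in cKO. Thus *Upf1* had a higher FPKM than *Upf2* in every WT library and less than *Upf2* in every cKO library.

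*Upf3a* and *Upf3b* are paralogues that compete for the same place on UPF2, and UPF3B is the more active of them in NMD. *Upf3b* had an FPKM of 40.1, 42.7 and 39.9 in WT and 69.1, 54.4 and 61.8 in cKO. All 3 cKO libraries were above all WT libraries, with cKO 2 the nearest to WT. The cKO mean was 61.8 ± 7.39 (SD, n = 3), 151% of the WT mean of 40.9 (range 39.9 to 42.7), with a log2 fold change of 0.58 (limma, adjusted p = 0.00203, standard error 0.10). *Upf3b* is X-linked, and the 320 tested genes of chromosome X had a median log2 fold change of 0.20 against 0.03 for autosomal genes, so genotype and sex cannot be told apart for it. Its adjusted p was 0.0836 when WT was averaged into 1 sample and 0.0993 with GC content and length corrected (log2 fold change 0.25). With equal FPKM totals the log2 fold change was 0.02 (adjusted p = 0.819).

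*Upf3a* had an FPKM of 44.96, 51.8 and 47.9 in WT and 55.9, 40.8 and 45.1 in cKO. The groups overlapped, with cKO 1 the highest and cKO 2 the lowest of all 6 libraries. The log2 fold change was -0.04 (limma, adjusted p = 0.795, standard error 0.12), and its sign changed without WT 2 (0.01) and without cKO 2 (0.07). The coding sequences of *Upf3a* (1269 bases) and *Upf3b* (1419 bases), taken from GENCODE transcripts, were identical at 67.6% of 1183 aligned bases. The longest run they share, shown because it bounds how far reads could be confused between the paralogues, is 15 bases and starts at base 307 of the *Upf3a* and base 262 of the *Upf3b* coding sequence.
Shared run of Upf3a and Upf3b: AGCCTTTATCCTCAT
The ratio of *Upf3b* to *Upf3a* was 0.891, 0.826 and 0.833 in WT and 1.24, 1.33 and 1.37 in cKO. *Upf3a* was thus the more abundant paralogue in every WT library and *Upf3b* in every cKO library. The mean log2 ratio was higher by 0.63 in cKO (exact permutation test, two-sided, p = 0.1, adjusted p = 0.1 over 3 ratios), where 0.1 is the smallest p that 3 libraries against 3 allow. With GC content and length corrected, the log2 ratio was higher by 0.31.

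Among the members in the SMG1 complex, the subunit gene *Smg9* was lower and the kinase gene *Smg1* did not pass the test. The gene of a further subunit, *Smg8*, is not a member and is counted below with the other NMD factors. It went the other way, with 10.3 to 10.98 FPKM in WT and 12.02 to 13.96 in cKO. *Smg8* was called higher in the main test (log2 fold change 0.28, limma, adjusted p = 0.0162). *Smg9* had an FPKM of 27.6, 24.9 and 25.6 in WT and 19.7, 18.9 and 16.4 in cKO. The 3 cKO libraries were all below WT, with a mean of 18.3 ± 1.69 (SD, n = 3), 70.3% of the WT mean of 26.1 (range 24.9 to 27.6). The log2 fold change was -0.49 (limma, adjusted p = 0.00221, standard error 0.09). It was -0.03 with GC content and length corrected (adjusted p = 0.740), and the adjusted p was 0.0893 when WT was averaged into 1 sample.

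*Smg1*, the kinase and the longest of the 8 transcripts at 15557 nucleotides, had an FPKM of 53.6, 54.5 and 55.1 in WT and 49.8, 53.2 and 47.4 in cKO. The cKO values were below the WT values, cKO 2 by less than 1 FPKM, and the log2 fold change of -0.12 did not pass the test (limma, adjusted p = 0.148, standard error 0.06). Without cKO 2 it was -0.15 and passed (adjusted p = 0.0218), and with GC content and length corrected the sign turned (0.06, adjusted p = 0.474). The ratio of *Smg9* to *Smg1* was 0.515, 0.458 and 0.466 in WT and 0.395, 0.355 and 0.346 in cKO. It was lower in every cKO library, with a mean log2 ratio that differed by -0.39 (exact permutation test, two-sided, p = 0.1, adjusted p = 0.1, the smallest possible). The difference was -0.09 with GC content and length corrected (exact permutation p = 0.3).

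The factors that act after UPF1 phosphorylation were both lower in the main test. *Smg6*, the endonuclease, had an FPKM of 19.6, 19.1 and 19.8 in WT and 14.0, 13.1 and 13.6 in cKO. Both groups were tight and lay well apart, and *Smg6* had the smallest spread of the 8 members in cKO. The cKO mean was 13.6 ± 0.424 (SD, n = 3), 69.5% of the WT mean of 19.5 (range 19.1 to 19.8), and the log2 fold change was -0.49 (limma, adjusted p = 0.000581, standard error 0.06). It was -0.21 with GC content and length corrected (adjusted p = 0.0184), and the adjusted p was 0.0709 when WT was averaged into 1 sample. *Srr*, which overlaps *Smg6* on the other strand, was at 5.71 to 6.20 FPKM in WT and 6.43 to 7.65 in cKO, and the strand setting of the counting is not given in the sources used here.

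*Smg5*, the adaptor to decapping and deadenylation, had an FPKM of 27.9, 28.1 and 28.3 in WT and 21.7, 26.0 and 21.7 in cKO. cKO 1 and cKO 3 were level with each other, and cKO 2 lay nearer to WT. The log2 fold change was -0.27 (limma, adjusted p = 0.0200, standard error 0.08), and the call did not hold without WT 1, WT 2, WT 3 or cKO 3 (adjusted p = 0.0663, 0.0683, 0.0740 and 0.0575). With GC content and length corrected *Smg5* was higher in cKO, with a log2 fold change of 0.27 (adjusted p = 0.0265), so its direction depends on that correction. The ratio of *Smg5* to *Smg6* was 1.42, 1.47 and 1.43 in WT and 1.55, 1.98 and 1.597 in cKO. cKO 2 had the highest ratio, and the mean log2 ratio was higher by 0.24 in cKO (exact permutation test, two-sided, p = 0.1, adjusted p = 0.1, the smallest possible), or by 0.49 after the correction and by 0.13 without cKO 2.

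**Figure D2:**
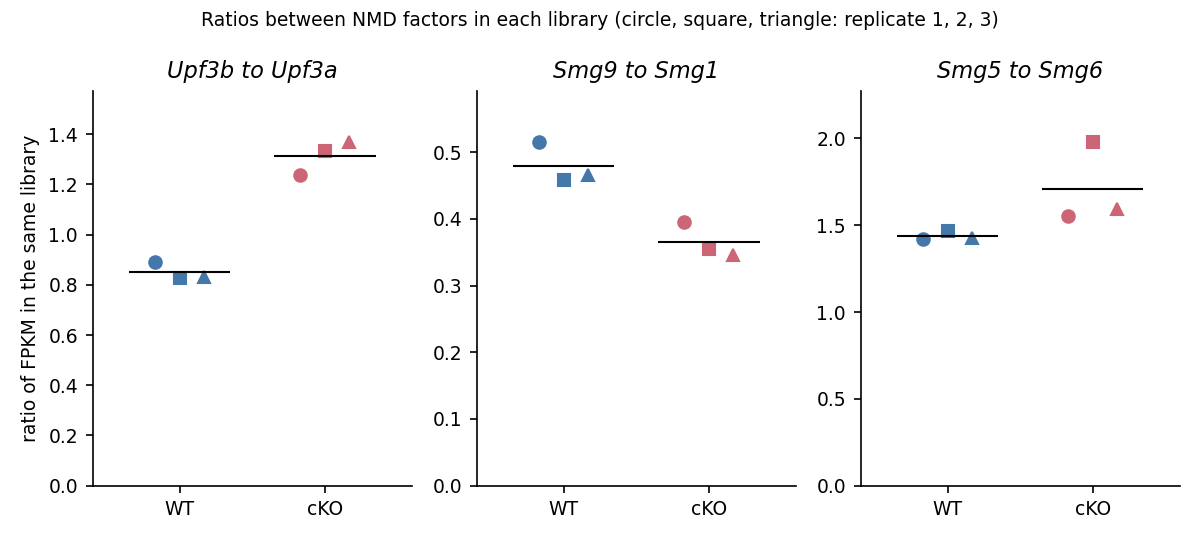
Ratios of FPKM (vertical axes, each from 0) between *Upf3b* and *Upf3a*, *Smg9* and *Smg1*, and *Smg5* and *Smg6* within each of the 6 libraries. Points are single libraries and lines are group means. The ratio of *Upf3b* to *Upf3a* is below 1 in the 3 WT and above 1 in the 3 cKO libraries.

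The order of the members by FPKM, which is scaled to transcript length, differed between the genotypes. In WT the order was *Smg1* (mean 54.4), *Upf3a* (48.2), *Upf1* (46.1), *Upf3b* (40.9), *Smg5* (28.1), *Smg9* (26.1), *Upf2* (22.6) and *Smg6* (19.5). Only the ranges of *Upf3a* and *Upf1* overlapped between neighbours. In cKO it was *Upf3b* (61.8), *Smg1* (50.1), *Upf3a* (47.3), *Upf2* (25.0), *Smg5* (23.1), *Smg9* (18.3), *Upf1* (16.7) and *Smg6* (13.6). Here the ranges of *Smg1* and *Upf3a*, of *Upf2* and *Smg5*, of *Smg9* and *Upf1*, and of *Upf1* and *Smg6* overlapped, so that *Upf1* moved from the third place to the seventh and stood beside *Smg6*. The summed FPKM of the 8 members was 282 to 291 in WT and 244 to 269 in cKO.

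The members varied more among the cKO than among the WT libraries, with coefficients of variation of 0.718% to 7.06% in WT and of 3.12% to 22.9% in cKO, larger in cKO for all 8. A larger spread in cKO was not particular to the members. Over single-transcript genes the median squared difference was 5.11 to 11.5 times what counting alone gives within cKO pairs. It was 1.22 to 1.29 times that within WT pairs. The estimated fragments behind a value of a member ranged from 527 to 17561, for a counting error of 0.755% to 4.36%. Of the 7 members whose groups were separate, cKO 2 lay nearest to WT in 4 (*Upf1*, *Upf3b*, *Smg1* and *Smg5*) and cKO 1 in 3. Over the 7482 tested genes with separate groups, cKO 2 was the nearest in 55.8%.

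The members were ordered in part like the GC content of their transcripts. *Upf3b* (42.5%), *Upf2* (43.5%) and *Smg1* (44.9%) have the lowest GC content, and *Smg6* (51.9%), *Upf3a* (52.9%), *Smg5* (56.5%), *Upf1* (57.9%) and *Smg9* (60.3%) the highest. Both positive log2 fold changes belong to the 2 members with the lowest GC content, and the 4 members called lower have a GC content of 51.9% or more. Over all genes, of 2477 tested genes under 45% GC, 50.7% were called higher and 10.9% lower, and of 2460 genes at 55% or above, 18.9% were called higher and 53.9% lower. The median log2 fold change was 0.25 in the first of these groups and -0.37 in the second. *Smg9* (-0.49) and *Smg5* (-0.27) lay near the median of their GC group, *Upf1* (-1.43) far below it, and *Smg6* (-0.49) below the median of -0.02 of genes between 50% and 55%. With GC content and length corrected, *Upf1* was still lower (log2 fold change -0.79, standard error 0.14, adjusted p = 0.00322). So was *Smg6* (-0.21, adjusted p = 0.0184). *Smg9* was not called after the correction (-0.03, adjusted p = 0.740), while *Smg5* was called higher (0.27, adjusted p = 0.0265). The correction takes GC content and transcript length together, and the part of each was not tested. *Upf3a* and *Smg6* are close in GC content but differ in transcript length (2057 and 5848 nucleotides). With the correction *Upf3a* went from -0.04 to -0.06 and *Smg6* from -0.49 to -0.21.

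**Figure D3:**
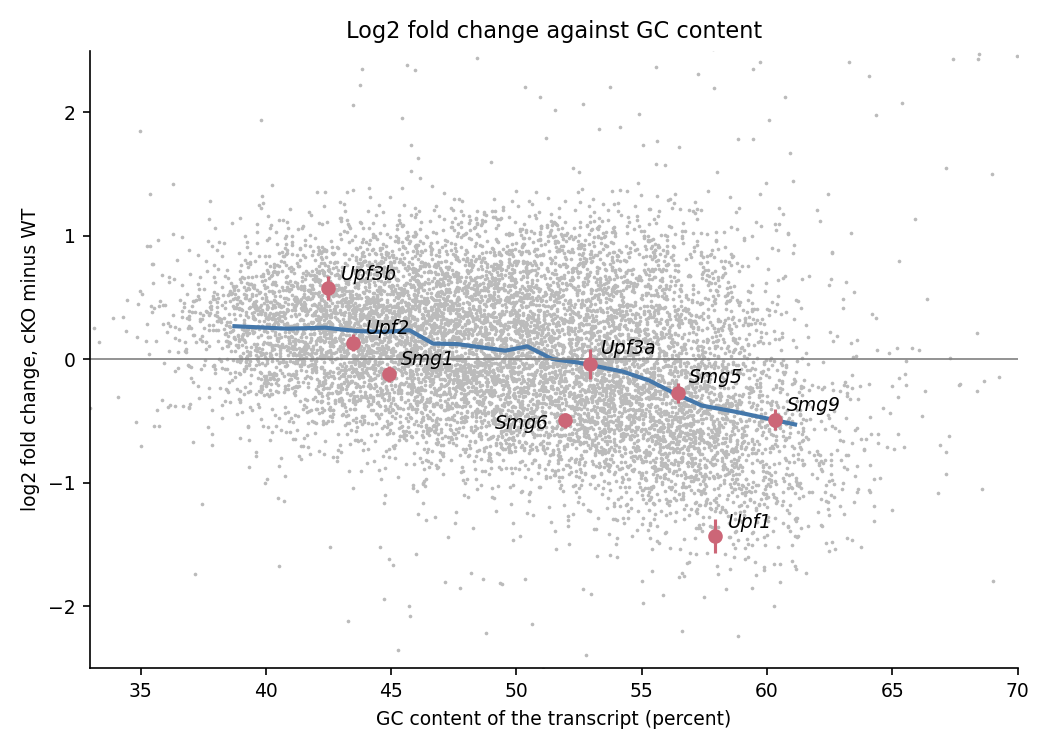
Log2 fold change of log2(FPKM + 1) (vertical axis, cKO minus WT) against the GC content of the transcript (horizontal axis, percent). Grey points are all tested genes within the axis range, the blue line joins medians of 20 GC groups of equal size, and red points with bars of 1 standard error are the 8 NMD factors. *Upf1*, at -1.43, lies far below the line, and *Smg5* and *Smg9* lie on it.

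The scaling of the libraries also mattered. FPKM values summed to 521296 to 531517 in WT and to 701396 to 850548 in cKO, and the size factors used here, between 1.00 and 1.01, left that difference in place. When FPKM totals were made equal instead, the median log2 fold change of all genes moved to -0.45, and the split of calls went from 3693 higher and 3073 lower to 902 higher and 6181 lower (8.74% and 59.9%). In that setting 7 members were called lower, all but *Upf3b* (0.02). *Upf1* (-1.97), *Smg9* (-1.03), *Smg6* (-1.02), *Smg5* (-0.81), *Smg1* (-0.67, standard error 0.11) and *Upf3a* (-0.59, standard error 0.12) lay below the median of all genes. The distance was more than the standard error for each of them. *Upf2* (-0.41, standard error 0.12) lay within its standard error of that median. With GC content and length corrected, 2 members were called lower and 1 higher, where 23.7% of all genes were called lower and 33.5% higher. *Upf1* kept its direction and its call in all 17 alternative settings, the fit with a lone WT sample included, with log2 fold changes between -1.97 and -0.79 and adjusted p-values between 1.64e-05 and 0.0302.

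**Figure D4:**
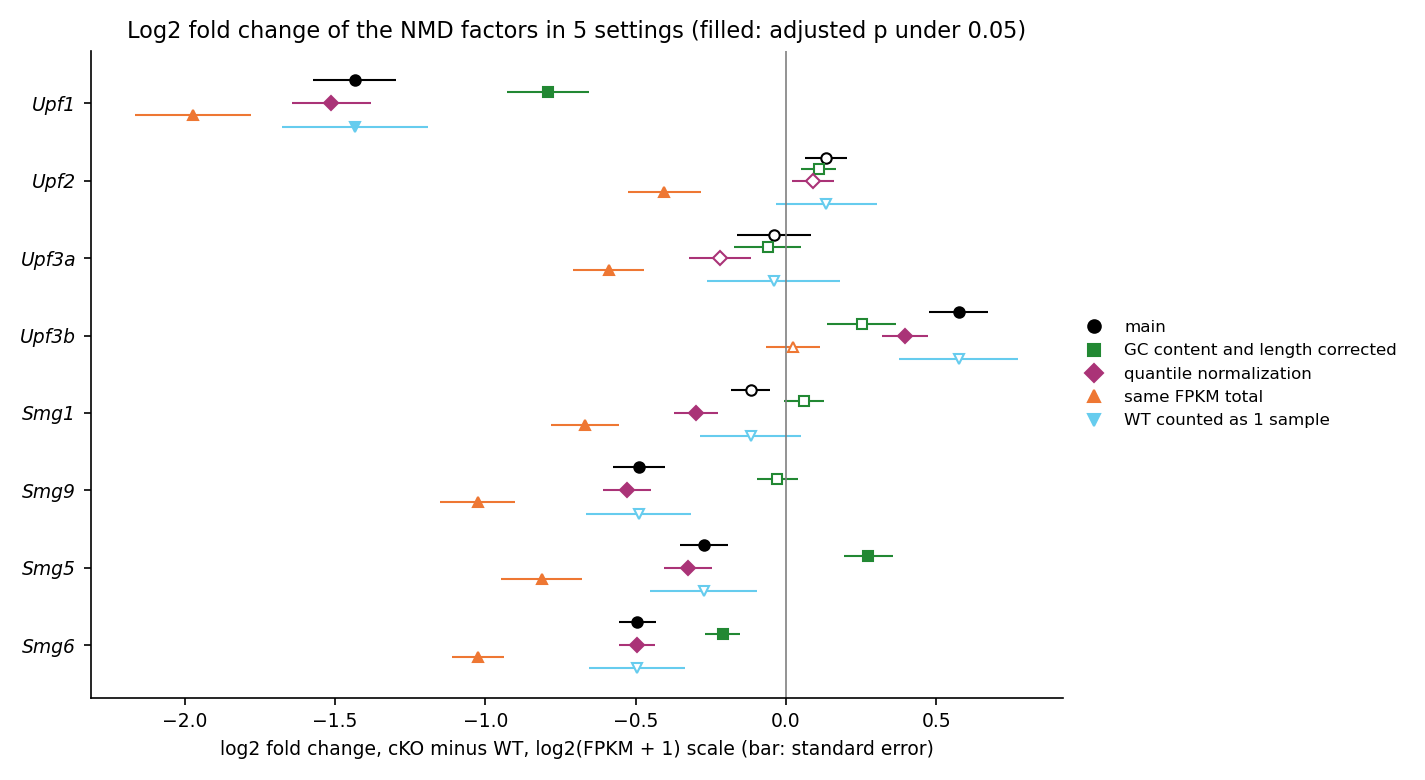
Log2 fold change of log2(FPKM + 1) (horizontal axis, cKO minus WT) of each NMD factor in 5 settings, with bars of 1 standard error. Filled symbols have an adjusted p under 0.05 and open symbols do not. *Upf1* is filled in all 5 settings, and *Smg5* lies at -0.27 in the main setting and at 0.27 with GC content and length corrected.

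Many genes had a profile like that of *Upf1* across the libraries. The 5 with the highest Pearson correlation over the 6 libraries, given as a description, were *Nfrkb*, *Agap2*, *Rfng*, *Rbak* and *Ncoa3* (each at 1.00 after rounding), and 1589 of the 10326 tested genes were above 0.95. For *Smg1* they were *Taf8* (0.998), *Arfgef1* (0.995), *Cyp4f13* (0.994), *Ppp6r2* (0.993) and *Cspp1* (0.992), with 237 genes above 0.95. The 6 points fall into 2 genotypes, and any gene with a large difference between them correlates.

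Genes that work beside the 8 members were followed in 5 lists of 58 genes, of which 56 could be tested. In all, 23 were higher in cKO, 13 were lower and 20 did not pass the test, with a median log2 fold change of 0.15 against 0.04 over all genes. Over all genes tested, 35.8% were called higher and 29.8% lower. With equal FPKM totals, where the median of all genes was -0.45 and 59.9% of them were called lower, the counts were 3 higher and 30 lower. With WT averaged into 1 sample they were 3 and 4, beside 7.16% and 8.74% of all genes. No test set the lists apart from other genes.

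Of 13 other NMD factors, 12 were tested. In the main test 7 were higher and 3 lower, beside 35.8% and 29.8% of all genes, with a median log2 fold change of 0.32. With equal FPKM totals 0 were higher and 6 lower (median -0.21), beside 8.74% and 59.9% of all genes, whose median was -0.45. The counts were 7 and 4 with quantile normalization (33.7% and 29.4% of all genes). They were 8 and 1 with GC content and length corrected (33.5% and 23.7% of all genes). The genes named next were called in the main test. The higher ones included *Pnrc2* (0.69, adjusted p = 0.000621), which links UPF1 to decapping, *Ncbp2* (0.55, 0.000896) and *Ncbp1* (0.43, 0.00164), the subunits of the nuclear cap-binding complex, and *Nbas* (0.55, 0.00347). *Mov10*, an RNA helicase that interacts with UPF1 (-0.86, adjusted p = 0.000473), and *Dhx34* (-0.37, 0.0126) were among the lower ones.

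The exon junction complex marks spliced junctions for the UPF proteins. Of its 9 genes, 4 were higher and 2 lower in the main test, beside 35.8% and 29.8% of all genes. The median log2 fold change was 0.24. The sign of the median depended on the processing. With GC content and length corrected, 1 was higher and 3 lower (median -0.06), beside 33.5% and 23.7% of all genes. The counts were 4 and 4 with quantile normalization (median -0.13), beside 33.7% and 29.4% of all genes. They were 2 and 5 with equal FPKM totals (median -0.31), beside 8.74% and 59.9% of all genes, whose median was -0.45. The genes named next were called in the main test. *Magoh* (log2 fold change 0.91, adjusted p = 0.000364), its paralogue *Magohb* (1.10, 0.000581), *Sap18* (0.48, 0.00160) and *Rbm8a* (0.38, 0.00397) were higher. *Casc3* (-1.01, adjusted p = 0.000703), the core subunit at cytoplasmic junction complexes, and *Acin1* (-0.87, 0.000114) were lower. *Casc3* had an FPKM of 32.2, 31.6 and 32.1 in WT and 13.0, 19.5 and 14.4 in cKO, with cKO 2 the nearest to WT. *Magoh* and *Magohb* are close copies, so how reads were split between them is uncertain.

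Of 14 genes of the general mRNA decay machinery, 6 were higher and 5 lower in the main test, beside 35.8% and 29.8% of all genes. The median log2 fold change was 0.02. The counts were 3 and 5 with quantile normalization (33.7% and 29.4% of all genes). With GC content and length corrected they were 4 and 4 (33.5% and 23.7% of all genes). They were 0 and 9 with equal FPKM totals (median -0.50), beside 8.74% and 59.9% of all genes. The genes named next were called in the main test. *Cnot1* (0.33, adjusted p = 0.00210), the scaffold of the CCR4-NOT deadenylase, *Edc3* (0.55, 0.00229), *Ddx6* (0.40, 0.00733) and *Cnot8* (0.32, 0.00734) were higher. *Dcp1b* (-0.65, adjusted p = 0.00103), *Edc4* (-0.50, 0.00332), *Pan2* (-0.78, 0.00332) and *Pan3* (-0.93, 0.0111) were lower, the last 2 being the subunits of the PAN2-PAN3 deadenylase. *Pan3* was at 42.6, 85.1 and 46.3 FPKM in cKO against 105 to 106 in WT.

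SMG1 is a PIKK, a family of large kinases whose folding depends on the TELO2-TTI1-TTI2 complex and the RUVBL ATPases. Of 10 kinases and assembly factors, 5 were higher and 2 lower in the main test, beside 35.8% and 29.8% of all genes. The median log2 fold change was 0.24. The sign of the median depended on the scaling. With equal FPKM totals 1 was higher and 5 lower (median -0.23), beside 8.74% and 59.9% of all genes. The median of all genes was then -0.45, so the list lay above it, as in the main test (0.24 against 0.04). The counts were 8 and 2 with quantile normalization (33.7% and 29.4% of all genes). With GC content and length corrected they were 7 and 1 (33.5% and 23.7% of all genes). In the main test the following genes were called. *Ruvbl1* (1.11, adjusted p = 0.000300), *Tti1* (0.67, 0.000686), *Tti2* (0.48, 0.00204) and the kinase *Prkdc* (0.35, 0.00508) were higher, and *Trrap* (-0.89, 0.000146) and *Mtor* (-0.36, 0.00357) were lower.

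Transcripts known to be degraded by NMD gave 1 higher and 1 lower gene of 11 tested, out of 12 listed, beside 35.8% and 29.8% of all genes. The median log2 fold change was 0.08. The count rested on cKO 2: without it 3 were higher and 4 lower (median -0.14), beside 40.1% and 34.4% of all genes. The count was 3 and 2 with quantile normalization (median -0.22), beside 33.7% and 29.4% of all genes. It was also 3 and 2 with GC content and length corrected (median -0.18), beside 33.5% and 23.7%. It was 0 and 5 with equal FPKM totals (median -0.47), beside 8.74% and 59.9% of all genes, whose median was -0.45. The list was thus near all genes in that last setting. *Cdkn1a* was higher (0.60, adjusted p = 0.00118) and *Gadd45b* lower (-0.87, 0.00989). *Gas5*, a snoRNA host transcript and known NMD target, had an FPKM of 42.5, 43.8 and 43.4 in WT and 28.3, 67.3 and 33.6 in cKO. *Snhg1* was at 127, 130 and 128 in WT and at 108, 228 and 124 in cKO, and *Atf4* at about 120 in each WT library and at 83.2, 139 and 94.1 in cKO. For these 3 transcripts, named after their values were seen, cKO 2 stood above the 3 WT libraries and cKO 1 and cKO 3 below them, and none passed the test (adjusted p = 0.752, 0.574 and 0.291 from limma). Other listed transcripts differed: for *Snhg12*, at 31.7 to 35.9 FPKM in WT, cKO 1, 2 and 3 were at 23.8, 79.4 and 39.8. For *Zfas1*, at 114 to 116 FPKM in WT, they were at 68.0, 156 and 125, so that cKO 3 was above WT for both.

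**Figure D5:**
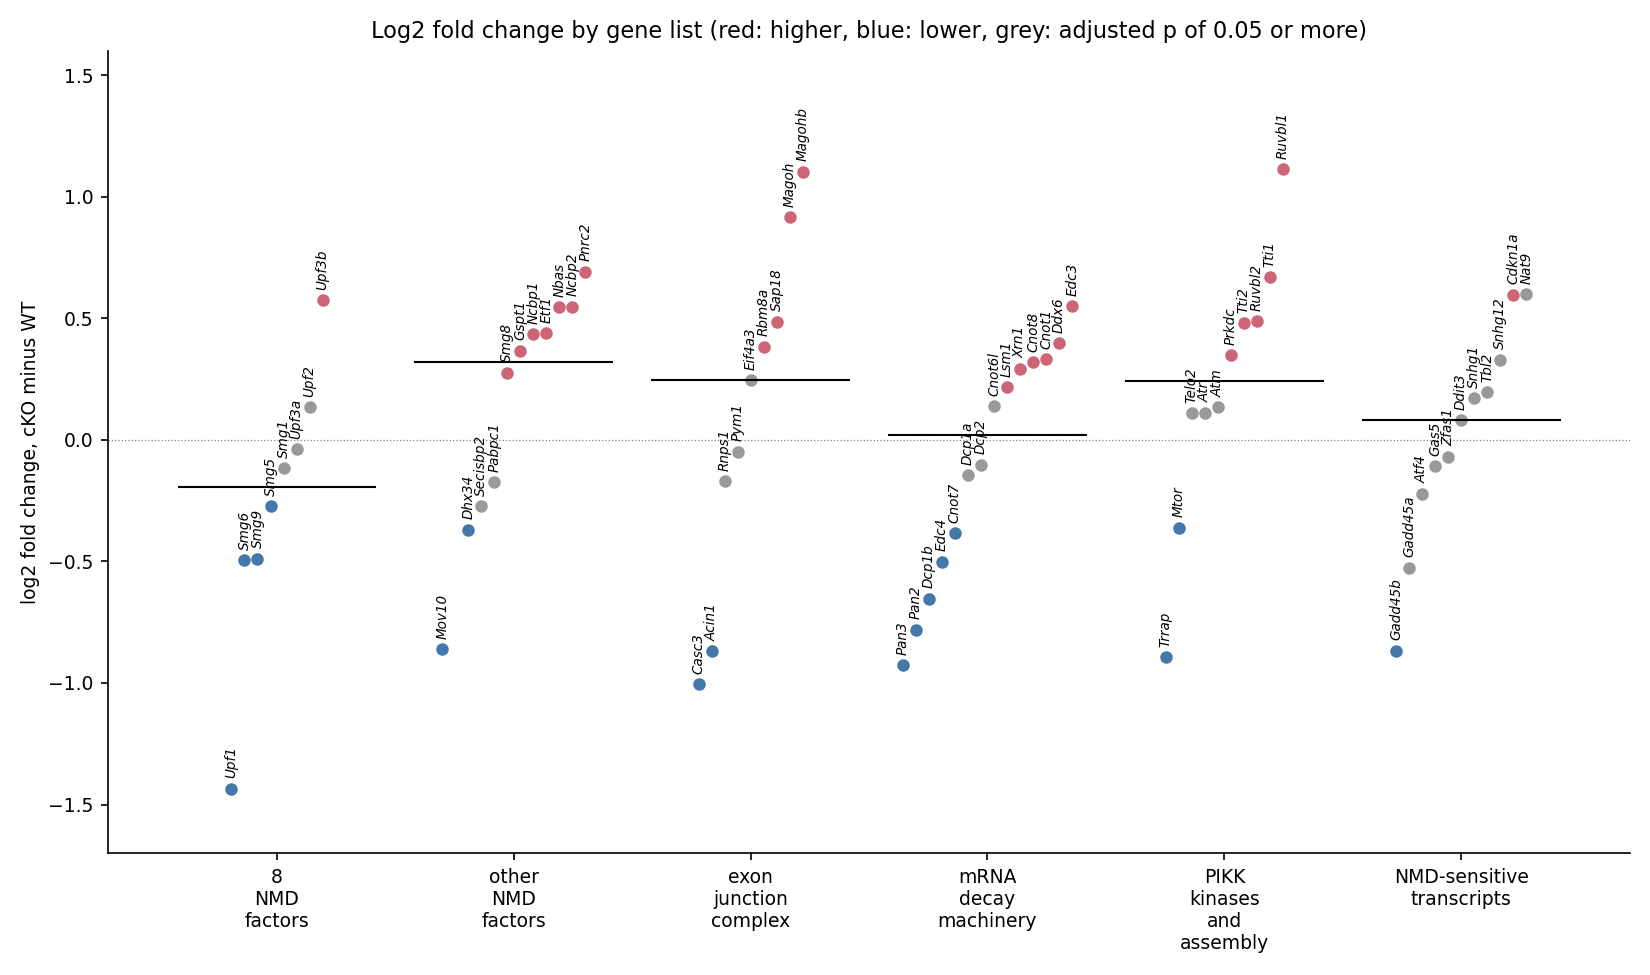
Log2 fold change of log2(FPKM + 1) (vertical axis, cKO minus WT) of tested genes in the 8 NMD factors and the 5 lists. Red points were called higher, blue points lower and grey points had an adjusted p of 0.05 or more, and black lines are list medians. *Upf1*, at -1.43, is the lowest point shown.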

How the data were processed

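From sorted DP thymocytes the authors made strand-specific poly(A) libraries, sequenced them as paired-end reads, trimmed and mapped the reads to mm10 with Tophat, and deposited 1 FPKM value per gene symbol and library from Cufflinks. The submitters' processing notes also name TopHat and mm10. Tool versions, annotation and strand setting are not given in the sources used here. The counts that the authors tested are not analysed here.

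Libraries were scaled by size factors (median of ratios). For genes that reached an FPKM of 1 in 3 or more libraries, log2(FPKM + 1) was modelled on genotype using limma 3.58.1 (lmFit, eBayes with a trend; R 4.3.3), and p-values were adjusted over all of these genes. The pseudocount understates the change of low genes. Ratios within a library used FPKM with no pseudocount and an exact permutation test over the 6 libraries. The correction for GC content and length used natural splines with 5 degrees of freedom per library and GENCODE mouse release M21 transcripts. Depth was estimated at genes with 1 transcript over 1000 nucleotides, with an assumed fragment length of 200. Python 3.11.15, pandas 2.3.3, scipy 1.17.1 and biopython 1.88 were used for tables and matplotlib 3.10.9 for figures. The fit was also run on simulated data in which few genes changed, as many up as down, with no trend in GC content or length. In the data most genes were called and FPKM totals differed between genotypes. The simulation therefore does not test the scaling or the correction.

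Members, gene lists, markers and alternatives were chosen with earlier results of these data known. Named genes are the members, *Nsrp1*, up to 4 listed genes per direction by adjusted p, further listed genes given with their values, and the 5 genes most like *Upf1* and *Smg1*. Listed genes that are not named enter the counts only, and 1 of them is not reported or plotted here. Same-numbered WT and cKO libraries did not deviate together (correlations of -0.02, 0.04 and 0.03), and nothing in the labels pairs them.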

Additional observations from a re-analysis of the deposited data

How the results depend on the processing

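*Upf1* was called lower in all 17 alternatives. With the correction for GC content and length, log2 fold changes became 0.25 (*Upf3b*), -0.028 (*Smg9*), 0.059 (*Smg1*) and 0.27 (*Smg5*), and 2 members were called lower (23.7% of all genes). With that correction and the replicate block together, these 4 values were the same, *Smg6* (-0.21, adjusted p = 0.0596) was not called and 1 member was called lower. Scaled to the same FPKM total, the values were -0.41 (*Upf2*), -0.59 (*Upf3a*), -0.67 (*Smg1*) and 0.025 (*Upf3b*). Then 7 members were called lower and 0 higher (59.9% and 8.74% of all genes), with 3 pathway genes higher and 30 lower. Averaging WT into 1 sample, *Upf3b* (0.57), *Smg9* (-0.49), *Smg5* (-0.27) and *Smg6* (-0.50) were not called, leaving 1 member lower and 0 higher (8.74% and 7.16% of all genes), and 3 pathway genes higher and 4 lower. Quantile normalization made *Smg1* a call (-0.30, adjusted p = 0.00998). The cause of these changes was not tested.

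Leaving out 1 library at a time gave -0.16 to 0.069 for *Upf3a* (0.01 without WT 2, 0.069 without cKO 2), -0.15 to -0.080 for *Smg1* and -0.35 to -0.23 for *Smg5*. It gave 3 to 5 members lower, 1 higher, 20 to 27 pathway genes higher and 10 to 19 lower. The replicate block alone gave 4 members lower and 1 higher, with 23 pathway genes higher and 14 lower, and changed no member's call. The ratios kept their direction in all alternatives tried. FPKM carries no counts, so depth could only be estimated, and with 3 libraries per genotype no ratio could pass the test.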
